A study of Mus musculus with 6 samples.

Results

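Interleukin 6 and the genes that relay and limit its signal were examined in blood endothelial cells (BECs) and lymphatic endothelial cells (LECs) with altered Dot1l, the gene of the histone H3K79 methyltransferase. The set held 10 genes taken by name from the 24421 genes of the count table: the ligands Il6 and Lif, the receptor genes Il6ra and Il6st, the transducer Stat3, the inhibitors Socs1 and Socs3, and the transcription factors Irf1, Cebpb and Cebpd. All 10 genes were in the table and all had reads in each of the 6 libraries. The question was how the level of each gene differed between each library with altered Dot1l and its control. Cont BECs (labelled wild type) were sorted from E15.5 embryo skin of Tie2-Cre(-) Dot1l 2f/2f mice, and cKO BECs (labelled Dot1l KO) from Tie2-Cre(+) Dot1l 2f/2f littermates, so both carried the floxed alleles. Sorting kept CD31+ cells that were negative for F4/80, CD45 and Lyve1, and RNA of 2 to 3 embryos was pooled per library. The Tie2 promoter that drives this Cre is active in endothelial cells and also in blood cell precursors. The cultured cells were embryonic mouse cells, the yolk sac line CRL-2581 (Cont BECs and OE-BECs) and dermal LECs sold as C57-6064L (Cont LECs and OE-LECs), each being a single source of cells. OE cells were transduced with lentivirus that carries dCas9-VP64 and guides to the Dot1l promoter, controls with empty lentivirus, and transduced cells were sorted from 2 to 3 flasks per library.

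Interleukin 6 binds its own receptor chain, encoded by Il6ra, and the complex then engages gp130, the shared signalling chain encoded by Il6st. Janus kinases on gp130 activate STAT3, which enters the nucleus and induces, among others, Socs3, whose product binds gp130 and shuts the signal off. Endothelial cells carry much gp130, can make interleukin 6 in response to inflammatory cytokines through NF-kB and C/EBP factors, and induce Irf1 in response to interferons and inflammatory cytokines.

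Each group had 1 library, so no difference could be set against a spread between replicates, no test was made, and each comparison describes 2 libraries. Total counts were 8863349 and 11084686 reads for the skin libraries and 13933651 to 31032461 for the cultured ones, so that 3 reads, taken as the floor of a library, were 0.0967 to 0.338 counts per 1000000 reads (CPM). Dot1l had 762 reads (86.0 CPM) in control skin BECs against 944 (85.2 CPM) under the cKO label. A count over the whole gene cannot tell its floxed part from the rest and is no check of the deletion, so directions between these libraries are those of the labels. In culture its level was 111.5 CPM in control BECs against 302 with overexpression, and 95.3 CPM in control LECs against 217 with overexpression. Of the markers that define the sorted or cultured cells, Prox1, the master regulator of lymphatic fate, had 0 reads in all 4 cultured libraries, LECs included, and 1304 and 883 reads in the skin BEC libraries. Of the other lymphatic genes, Lyve1 had 52184 and 60898 reads and Flt4 2785 and 4038 in the control and overexpressing LECs. Pdpn and Ccl21a had 0 reads in both LEC libraries, Reln had 1 in each, and Mmrn1 had 0 and 1. Lyve1 and Flt4 were not particular to the LECs. In the control and overexpressing yolk sac BECs, Lyve1 had 10680 and 14786 reads and Flt4 2552 and 1369. In the skin libraries Lyve1, used for exclusion in the sort, had 9105 and 19959 reads, and Ptprc, the gene of CD45, had 1206 and 2340. The pan-endothelial genes Pecam1 and Cdh5 were high in all 6 libraries, at 750 CPM or more.

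In the skin BECs, 3 of the 10 genes passed the threshold of the study's methods as lower in the library labelled cKO, and these were Il6, Socs3 and Irf1. They lay on chromosomes 5, 11 and 11, and the 300 bases around each start (250 before it and 50 after it) are shown here because these 3 genes stood apart together. The sequences are those of RefSeq on GRCm38.p6, the mm10 build, written 5′ to 3′ on the strand of the gene. Capitals mark letters that match a STAT motif (TTCNNNGAA), a C/EBP motif (TTNNGNAA) or an NF-kB motif, each searched on both strands. The Il6 window is chr5:30012864-30013163 on the plus strand, the Socs3 window chr11:117969317-117969616 on the minus strand and the Irf1 window chr11:53769764-53770063 on the plus strand.
Il6: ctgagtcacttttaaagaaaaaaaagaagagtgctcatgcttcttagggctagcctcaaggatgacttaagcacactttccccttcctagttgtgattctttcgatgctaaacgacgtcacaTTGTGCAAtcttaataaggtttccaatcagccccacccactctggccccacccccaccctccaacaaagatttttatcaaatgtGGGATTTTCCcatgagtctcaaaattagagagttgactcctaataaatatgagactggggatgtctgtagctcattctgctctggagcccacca
Socs3: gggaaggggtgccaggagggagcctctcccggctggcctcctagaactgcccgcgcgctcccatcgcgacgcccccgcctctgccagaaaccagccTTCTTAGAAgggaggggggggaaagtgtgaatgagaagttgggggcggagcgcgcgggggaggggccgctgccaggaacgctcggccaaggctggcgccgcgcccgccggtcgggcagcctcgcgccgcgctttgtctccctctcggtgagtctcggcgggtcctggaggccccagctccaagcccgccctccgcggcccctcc
Irf1: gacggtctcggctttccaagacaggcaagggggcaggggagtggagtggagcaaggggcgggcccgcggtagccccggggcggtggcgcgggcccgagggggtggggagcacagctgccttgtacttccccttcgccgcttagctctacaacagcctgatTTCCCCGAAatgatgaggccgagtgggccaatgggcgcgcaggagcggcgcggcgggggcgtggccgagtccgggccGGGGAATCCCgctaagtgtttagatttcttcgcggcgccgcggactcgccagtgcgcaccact

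The Il6 window held the C/EBP letters TTGTGCAA from base -128 to -121 and the NF-kB letters GGGATTTTCC from -44 to -35, counted from the RefSeq start. The Socs3 window held the STAT letters TTCTTAGAA from -154 to -146, and the Irf1 window held the STAT letters TTCCCCGAA from -90 to -82 and the NF-kB letters GGGGAATCCC from -13 to -4. The Socs3 window lay wholly inside the span of the gene in the GENCODE M21 annotation (117966079 to 117970047, minus strand). The RefSeq start used for Socs3 was thus downstream of the GENCODE start. A second RefSeq start of Irf1 had a window with none of the 3 motifs. Of the other 7 genes, 6 had a RefSeq window and Cebpd had none in the table used. Il6ra and Stat3 held 2 C/EBP matches each, Lif held 1 NF-kB match, and Il6st, Socs1 and Cebpb held none. Among 32851 windows of the same length, 8.30% held the STAT motif, 40.7% the C/EBP motif and 8.46% the NF-kB motif. The matches in the 3 sequences shown did not overlap each other. A match describes letters in these windows and shows no binding.

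Among the ligands, Il6 (chromosome 5, 30013114 to 30019981 on mm10, protein coding) was a gene of low count. In the skin libraries its level was 8.80 CPM for Cont and 1.98 for cKO BECs, in the yolk sac line 2.37 CPM for Cont BECs and 1.58 for OE-BECs, and in the dermal LECs 4.36 CPM for Cont and 1.97 for OE. Cont BECs (skin) stood highest, Cont LECs came next, and the exact Poisson 95% intervals of both lay apart from those below, whereas the other 4 libraries overlapped with their neighbours in the order. These levels rested on 78, 22, 42, 22, 114 and 61 reads. Lif (chromosome 11, 4257557 to 4272514) encodes a cytokine that signals through gp130 and the LIF receptor. It had 20, 36, 3, 1, 16 and 34 reads in the same order, or 2.26, 3.25, 0.170, 0.0718, 0.613 and 1.10 CPM. These levels were below those of Il6 except in the library labelled cKO, where Lif was above Il6. The 2 libraries of the yolk sac line were at or under the floor for Lif, and neighbours in the order of its levels overlapped throughout. Intervals here and below cover counting error only and hold no spread between libraries. They treat reads as independent, but amplified reads with no molecular identifier cannot be taken as independent molecules, so the intervals may be too narrow.

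Of the receptor genes, Il6ra (chromosome 3, 89864059 to 89913196) had 32.6 CPM in Cont and 41.3 in cKO BECs of the skin, 17.1 in cultured Cont BECs, 11.3 in OE-BECs, 11.3 in control LECs and 8.77 with overexpression. Both skin libraries lay above all cultured ones, and the lowest 3 overlapped with their neighbours. Il6st (chromosome 13, 112464070 to 112510086) had 371, 250, 107, 112, 134 and 159 CPM in the same order. The skin libraries were again highest, and only the 2 yolk sac libraries could not be ordered. Stat3 (chromosome 11, 100885098 to 100939540) had the flattest profile, with 163, 140, 148, 74.9, 96.1 and 79.9 CPM and a ratio of 2.17 between the highest and the lowest library. OE-BECs and OE-LECs were lowest for Stat3 and their intervals overlapped.

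The inhibitor Socs3 (chromosome 11, 117966079 to 117970047) reached 115 CPM in Cont BECs of the skin and 28.6 under the cKO label, while cultured BECs had 10.9 CPM in the control and 12.4 with overexpression, and cultured LECs 14.4 and 17.4. The control skin library was 10.6 times the lowest library, the library labelled cKO lay between it and the cultured cells, and neighbours among the 4 cultured libraries overlapped. Socs1 (chromosome 16, 10782240 to 10785536), which encodes an inhibitor of Janus kinases and of interferon signalling, stayed between 1.58 and 3.54 CPM on 24 to 110 reads, and each library overlapped with its neighbour in the order.

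Irf1 (chromosome 11, 53770014 to 53778374), a transcription factor of interferon and inflammatory responses, repeated the order of Socs3 in the skin libraries. Its level was 126 CPM in the Cont and 38.7 in the cKO library of the skin, and in culture 23.1 CPM in control and 18.5 in overexpressing BECs, 17.8 in control and 20.1 in overexpressing LECs. The 2 skin libraries lay apart from each other and above the cultured ones, which overlapped with their neighbours. The C/EBP factors had another order. Cebpb (chromosome 2, 167688915 to 167690418) had 26.3, 40.9, 143, 142, 60.8 and 50.6 CPM, and Cebpd (chromosome 16, 15887286 to 15891031) had 44.7, 52.1, 169, 93.4, 66.3 and 43.3 CPM. Cebpd was highest in Cont BECs (cultured). For Cebpb the intervals of Cont BECs (cultured) and OE-BECs overlapped at the top, and Cont BECs (skin) were lowest.

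**Figure D1:**
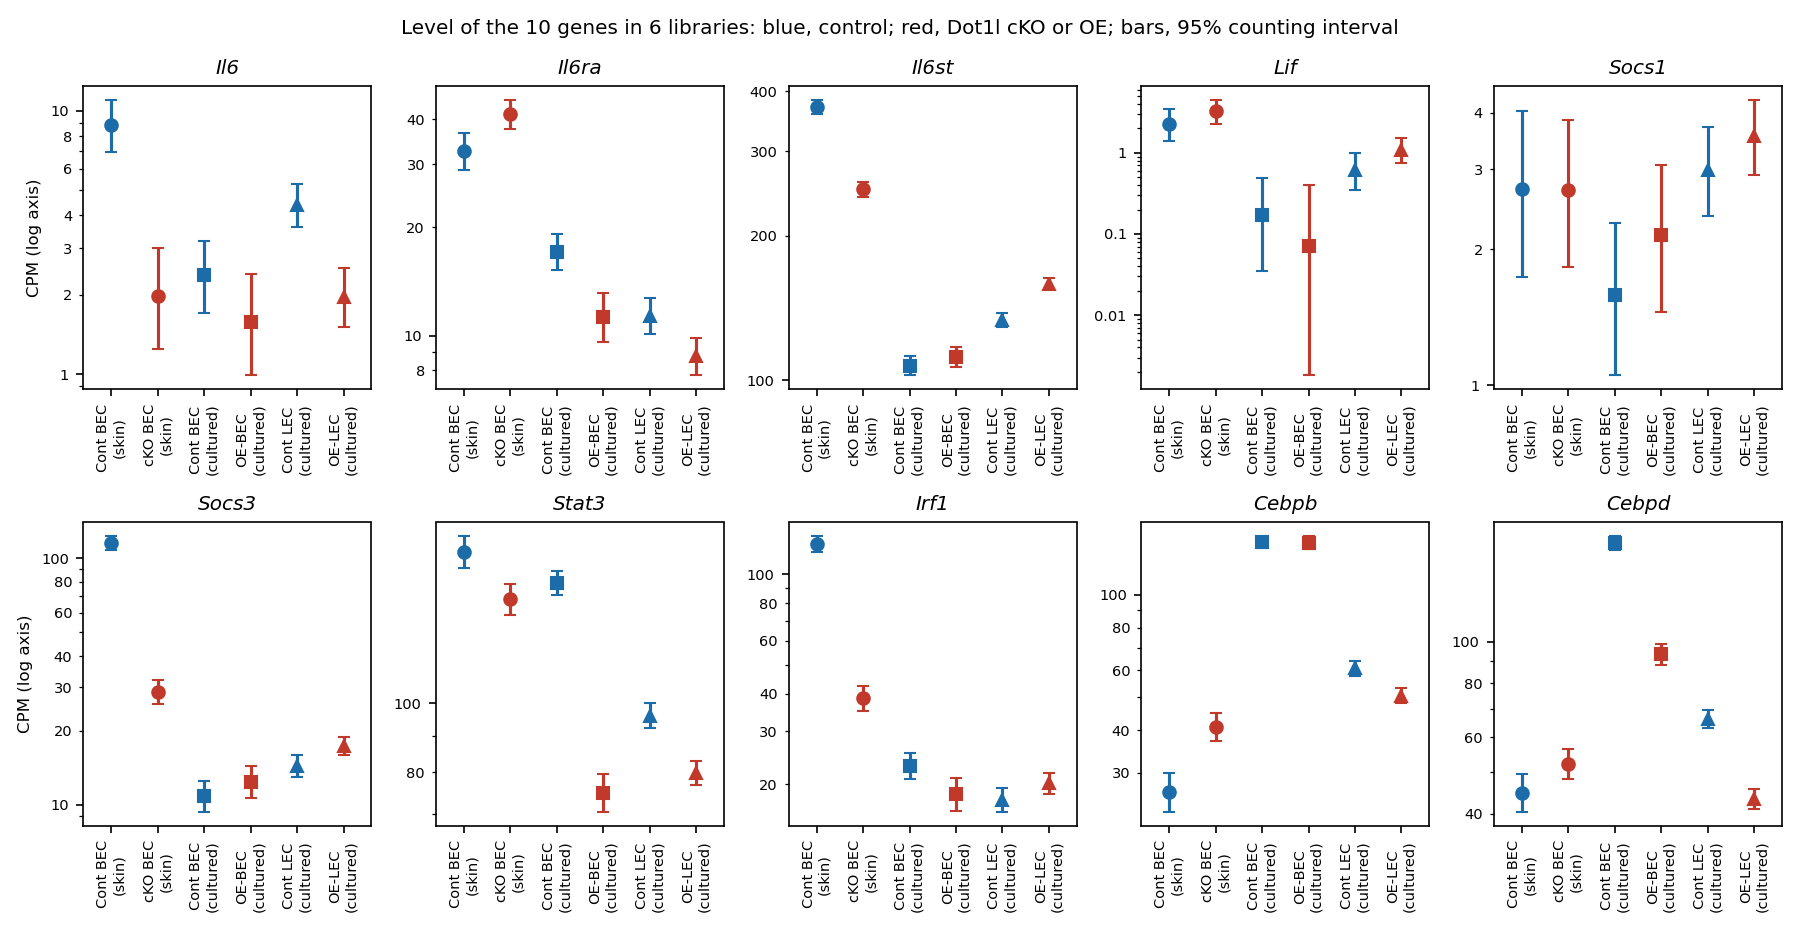
Level of each of the 10 genes in CPM on a log axis (y) in the 6 libraries (x), blue for controls and red for libraries with altered Dot1l, with bars for the exact Poisson 95% counting interval. Il6, Socs3 and Irf1 were highest in Cont BECs (skin), at 8.80, 115 and 126 CPM, while Cebpd was highest in Cont BECs (cultured), at 169 CPM, and Cebpb in both libraries of the yolk sac line, at 143 and 142 CPM.

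CPM divided by the exon length in kilobases (RPKM, with GENCODE M21 exon lengths) allowed levels to be compared between genes. Socs3 led the set in Cont BECs (skin) with 39.8 RPKM, followed by Il6st with 33.4 and Irf1 with 31.7. In the library labelled cKO, Cebpb led with 27.2 RPKM, and Socs3 and Irf1 ranked 5 and 6 with 9.89 and 9.73. Cebpb led in all 4 cultured libraries, with 33.6 to 94.9 RPKM. Lif was last in every library, with 0.0165 to 0.747 RPKM. Some exons share bases with a gene on the other strand. The study's methods name the -S option of the counting program VERSE, but whether the counting thereby used strand was not clear. The shared exon length was 72 bases for Stat3 with Stat5a, 312 for Cebpb with Tmem189, 562 for Cebpd with Spidr, 242 for Il6ra with Gm42809 and 135 for Irf1 with Gm17334.

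Each pair of libraries was brought to a common scale by the median of ratios. Calling a gene required a normalized count of 5 or more (skin) or 3 or more (cultured) in the higher library, and more than 3 times the value of the lower library. In the skin BECs, 3 of the 10 genes were called lower in the library labelled cKO and 0 were called higher. Of the 15993 genes that met the minimum, 2.41% were called lower and 5.17% higher. Under a minimum of 20 normalized counts the same 3 genes were called, against 1.12% of 13638 genes called lower and 2.73% called higher, whereas 0 were called when the median of 10 pan-endothelial genes was the reference. Il6 had 88.9 and 19.3 normalized counts and was 4.61-fold lower, a log2 ratio of -2.20 (exact 95% interval -2.96 to -1.51). Socs3 was 4.19-fold lower, a log2 ratio of -2.07 (interval -2.25 to -1.88), on 1021 and 317 reads. Irf1 was 3.38-fold lower, a log2 ratio of -1.76 (interval -1.92 to -1.60), on 1116 and 429 reads. Among the 13638 genes above the stricter minimum, 0.447% had a lower log2 ratio than Il6, 0.521% than Socs3 and 0.785% than Irf1. The lower end of size in the interval of Il6 reached inside 3-fold, while those of Socs3 and Irf1 did not.

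The other 7 genes stayed within 3-fold. For Il6st, on 3286 and 2767 reads, the log2 ratio was -0.63 (interval -0.70 to -0.55), but 0.076 with the pan-endothelial reference. For Stat3, on 1443 and 1551 reads, it was -0.27 (interval -0.38 to -0.17), but 0.43 with that reference. Cebpb was higher in the library labelled cKO, with a log2 ratio of 0.58 (interval 0.35 to 0.82), as was Il6ra, with 0.29 (interval 0.07 to 0.50), and that reference gave 1.28 and 0.99. The intervals of Lif (log2 ratio 0.47), Cebpd (0.17, and 0.87 with the pan-endothelial reference) and Socs1 (-0.06) included 0. The log2 ratio of Socs1 had an interval of -0.88 to 0.78, so a difference within that range was not detectable at this depth. In all, the interval lay below 0 for 5 genes and above 0 for 2, against 21.3% and 19.4% of the 18784 genes with a read in the pair. The median log2 ratio of the 10 genes was -0.16 (0.53 with the pan-endothelial reference), and that of all genes 0.01.

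**Figure D2:**
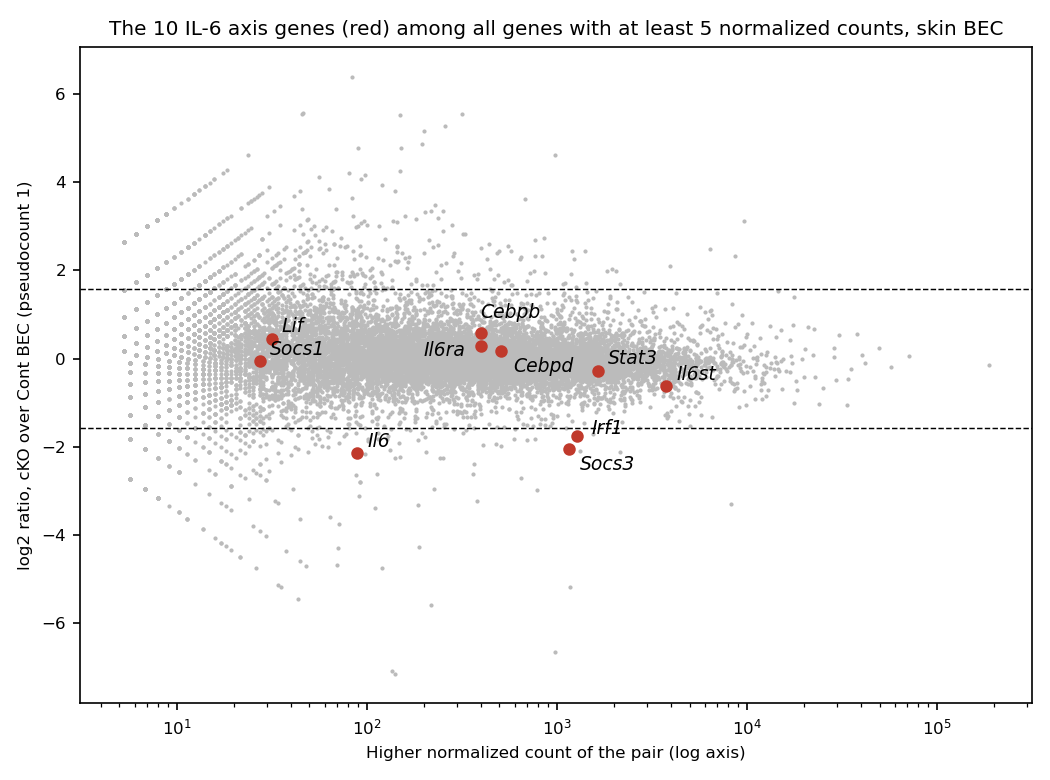
Log2 ratio of the library labelled cKO over Cont BECs (y, pseudocount 1) against the higher normalized count of the pair (x, log axis) for all genes with at least 5 normalized counts in grey and the 10 genes in red, with dashed lines at 3-fold. Il6, Socs3 and Irf1 lie below the lower line, and the other 7 genes lie between the lines.

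Ratios between 2 genes within a library do not depend on the scaling. Per 100 reads of Stat3 there were 70.8 reads of Socs3 in control skin BECs (interval 65.2 to 76.7) and 20.4 under the cKO label (interval 18.1 to 23.1). Per 100 reads of Irf2, which encodes a factor that binds the same DNA element, Irf1 had 206 and 72.8 reads. Il6 had 2.37 and 0.795 reads per 100 reads of Il6st. These values restate the same reads on a scale free of the size factors, and the intervals of each pair did not overlap.

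The makeup and state of the skin libraries differed in several marker lists, and in bulk RNA fewer cells of a type and less RNA per cell cannot be told apart. Of 10 pan-endothelial genes, 9 were lower in the library labelled cKO and 1 was higher, with a median log2 ratio of -0.70 and a summed level of 6113.8 and 3851.4 CPM. All 8 blood endothelial genes were lower, with a median log2 ratio of -0.71. All 12 macrophage genes were higher, 0 of them past 3-fold, and their summed level was 3840.2 CPM for Cont and 6191.4 for cKO, Adgre1 (which encodes F4/80) being at 194 and 308 CPM. Of 7 mast cell genes 6 were higher, with summed levels of 2860.2 and 4058.5 CPM, and of 10 keratinocyte genes 8 were higher and 4 were called, beside 5.17% of all genes, with 212 and 371 CPM. Of 8 fibroblast genes 7 were lower and of 7 pericyte genes 6 were lower. Each gene of these lists had reads in both skin libraries. Of 7 lymphatic endothelial genes, Ccl21a had 0 reads, 4 were lower and 2 higher. In all 4 cultured libraries Adgre1, C1qa, C1qb and C1qc of the macrophage list had 0 reads, whereas Cd68 of that list had 32.2 to 93.2 CPM there and 61.3 CPM in control skin BECs, and the other 7 genes had at most 2.26 CPM in culture. Of 20 immediate early and stress genes, which respond quickly to tissue dissociation among other stimuli, 15 were lower and 5 higher, with a median log2 ratio of -0.54 and summed levels of 4437.5 and 3043.4 CPM. The heat shock genes Hspa1a and Hspa1b of that list were called higher instead. With the pan-endothelial median as the reference, Il6, Socs3 and Irf1 had log2 ratios of -1.50, -1.36 and -1.06 and none of the 3 passed 3-fold. The part of cell makeup and of the immediate early response in the ratios of Il6, Socs3 and Irf1 was not tested.

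**Figure D3:**
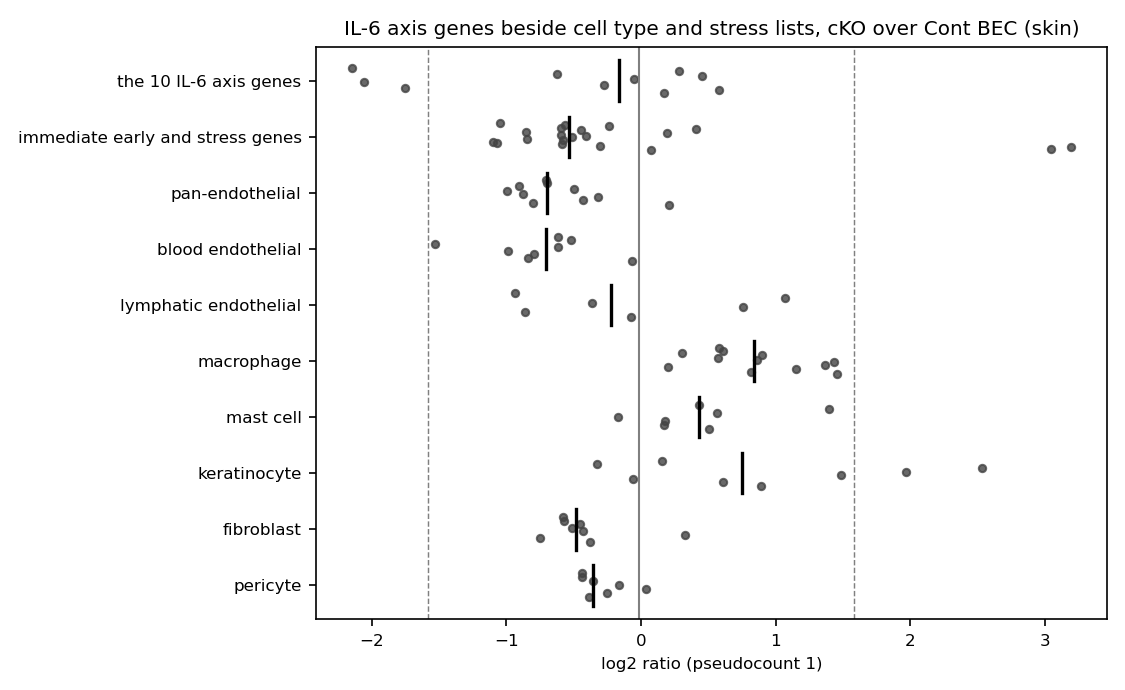
Log2 ratio of the library labelled cKO over Cont BECs (x, pseudocount 1) for the 10 genes and for lists of marker genes (y), where points are genes with at least 20 normalized counts, black bars list medians, the solid line the median of all genes and dashed lines 3-fold. Il6, Socs3 and Irf1 lie below the range of every marker list shown, the nearest gene being Aplnr of the blood endothelial list, at -1.53. The macrophage genes all lie above 0.

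In the cultured BECs, 0 of the 10 genes were called in either direction in OE-BECs, against 5.27% of 14792 genes called lower and 8.02% called higher. Stat3 came nearest, with 2609 control reads against 1044, 1.92-fold lower, a log2 ratio of -0.94 (interval -1.04 to -0.83). For Cebpd the log2 ratio was -0.82 (interval -0.91 to -0.72), on 2988 and 1302 reads. For Il6ra it was -0.57 (interval -0.85 to -0.28), on 303 and 157 reads. These 3 genes kept ratios below 0 under the pan-endothelial reference, at -0.61, -0.48 and -0.23. The log2 ratio of Irf1 was -0.28 (interval -0.51 to -0.05) but 0.05 with that reference. Il6st (log2 ratio 0.10, interval lower end 0.00) was the gene with an interval just above 0, and the intervals of Cebpb (0.03), Socs3 (0.23), Socs1 (0.48) and Il6 (-0.55) included 0. Il6 rested on 42 and 22 reads, and no ratio was given for Lif with 3 and 1 reads. The interval was below 0 for 4 genes and above 0 for 1, against 24.2% and 23.2% of all 16820 genes with a read, and the median log2 ratio was -0.40 for the 10 genes (-0.078 with the pan-endothelial reference, and -0.28 over the 9 genes that reached 20 normalized counts, without Lif) and 0.02 for all genes. All 10 pan-endothelial genes were also lower in OE-BECs, with a median log2 ratio of -0.33, and their part in these ratios was not tested.

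In the cultured LECs, 0 of the 10 genes were called in OE-LECs, against 2.09% of 13883 genes called lower and 2.77% called higher. Il6 differed most, with 114 control reads against 61, 2.19-fold lower, a log2 ratio of -1.13 (interval -1.61 to -0.67). Cebpd had a log2 ratio of -0.60 (interval -0.70 to -0.49) and Il6ra one of -0.35 (interval -0.60 to -0.11). The log2 ratio was -0.25 for both Stat3 and Cebpb, and -0.01 for both with the pan-endothelial reference. On the other side, Il6st was higher, with a log2 ratio of 0.27 (interval 0.21 to 0.33), as were Socs3 with 0.28 (interval 0.09 to 0.48) and Irf1 with 0.20 (interval 0.02 to 0.38). The intervals of Lif (0.86) and Socs1 (0.27) included 0. The interval was below 0 for 5 genes and above 0 for 3, against 17.4% and 19.6% of all 16160 genes with a read, and the median log2 ratio was -0.02 for the 10 genes (0.22 with the pan-endothelial reference) and 0.01 for all genes. Il6 per 100 reads of Il6st was 3.27 in the control (interval 2.69 to 3.94) and 1.24 with overexpression (interval 0.945 to 1.59).

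Side by side, the log2 ratio of Il6 was below 0 in all 3 comparisons, at -2.20 in skin BECs, -0.55 in cultured BECs and -1.13 in cultured LECs, the middle one with an interval that included 0. Socs3 and Irf1 did not share this: Socs3 had -2.07, 0.23 and 0.28, and Irf1 had -1.76, -0.28 and 0.20. Stat3 was below 0 in all 3, at -0.27, -0.94 and -0.25, and its sign in skin BECs turned with the pan-endothelial reference. Cebpd had 0.17, -0.82 and -0.60. Differences between these comparisons were not tested.

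**Figure D4:**
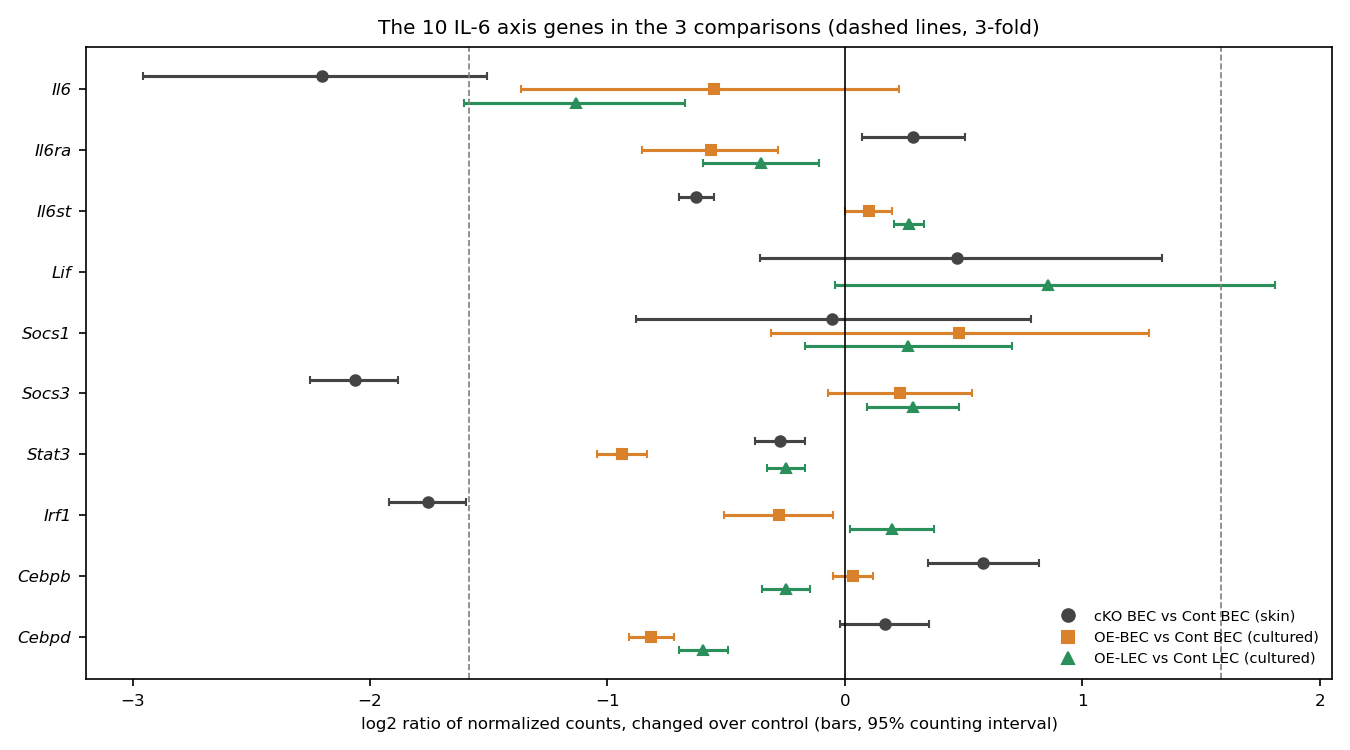
Log2 ratio of normalized counts (x), changed library over control, for the 10 genes (y) in skin BECs (grey circles), cultured BECs (orange squares) and cultured LECs (green triangles), with bars for the exact 95% counting interval and dashed lines at 3-fold. The skin BEC points of Il6, Socs3 and Irf1, at -2.20, -2.07 and -1.76, lie beyond the lower dashed line and no other point does; Lif in cultured BECs, with 3 and 1 reads, is not drawn.

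The other genes of the pathway were described by lists. In skin BECs none of the 7 other IL-6 family ligands with reads and none of the 5 other receptors was called. Of the receptors 4 were lower, among them Lifr, the partner of gp130 for Lif, with a log2 ratio of -1.27 on 3250 and 1748 reads, and Osmr, its partner for oncostatin M, with -1.19 on 325 and 185 reads. These and the other genes named in this paragraph outside the naming rule were chosen after their values were seen. None of the 10 Janus kinases and other STATs was called, with a median log2 ratio of -0.02, and none of the 14 other inhibitors of the pathway, with a median of -0.09. Of 15 genes induced by STAT3 or in the acute phase, 11 were lower, 1 of which was called (2.41% of all genes were), with a median log2 ratio of -0.46, or -0.29 over the 11 that reached 20 normalized counts. The called gene was Hp, which encodes haptoglobin, with 15 control reads and 0 under the cKO label. Of 15 NF-kB factors and regulators of Il6 mRNA, 13 were lower and 0 were called, with a median log2 ratio of -0.31. The pan-endothelial reference raises every ratio of this comparison by 0.70, which puts the medians of both lists above 0. The regulators of that list with ratios furthest below 0 were Nfkbiz with -1.43, Tnfaip3 with -1.22 and Zfp36 with -1.18, and their products respectively assist Il6 transcription, limit NF-kB signalling and destabilise cytokine mRNA.

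Of 11 inflammatory cytokines and related genes that are commonly induced with Il6, 4 were called lower and 3 higher in the library labelled cKO, where 2.41% and 5.17% of all genes were. Cxcl2, a neutrophil chemokine, had 689 control reads against 112, 7.99-fold lower, a log2 ratio of -3.00 (interval -3.30 to -2.71). Its relative Cxcl1 had 321 and 78 reads, 5.35-fold lower, a log2 ratio of -2.42. Ptgs2, which encodes the inducible cyclooxygenase, had 418 and 141 reads, 3.85-fold lower, a log2 ratio of -1.95. The other one was Il1b, with 77 and 15 reads, and the 3 called higher were Il1a, Csf2 and Csf3, with 2 and 28, 1 and 7, and 2 and 8 reads. The median log2 ratio of these 11 genes was -0.21, and -1.33 over the 9 genes that reached 20 normalized counts. With the pan-endothelial reference, which raises every ratio here by 0.70, Ptgs2 was no longer past 3-fold, while Cxcl1 and Cxcl2 were. That reference puts the median of the 11 genes above 0, but not the median over the 9 genes. Il1b, Il1a, Csf2 and Csf3, and Cxcl9, Cebpe and Nlrc5 in this comparison, lie outside the naming rule and were chosen after their values were seen. Of 14 IRF1-dependent genes with reads, which encode parts of antigen presentation, guanylate-binding proteins and interferon-induced chemokines, 8 were higher and 6 lower, while Irf1 itself was lower. Nlrc5, the activator of MHC class I genes, had 15 and 69 reads and was called higher with Cxcl9, which had 2 and 15 reads. Of the 8 other interferon regulatory factors 0 were called, with a median log2 ratio of -0.21, and of the 4 other C/EBP factors 1 was called higher, Cebpe with 2 and 10 reads.

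For the cultured cells too, some genes of this paragraph lie outside the naming rule and were chosen after their values were seen. These are Cxcl1, Cxcl10, Ptgs2 and Csf3 in OE-BECs, and Il1a, Csf2, Saa3, Lrg1, Lcn2 and Timp1. In OE-BECs, 7 of the 8 cytokines with reads were higher and 1 was called, with a median log2 ratio of 0.87, whereas Il6 had -0.55. Cxcl1 had 417 control reads against 780, and Ptgs2 1288 against 1497, log2 ratios of 1.29 and 0.60. The called gene was Csf3, with 7 and 21 reads, and 8.02% of all genes were called higher. In OE-LECs, 7 of the 10 cytokines with reads were lower and 3 higher, and 2 were called lower, Il1a with 3 and 1 reads and Csf2 with 3 and 0, as were 2.09% of all genes. Their median log2 ratio was -0.30, beside -1.13 for Il6. Of the 14 genes induced by STAT3 or in the acute phase with reads, 8 lay below the control in OE-BECs and 2 were called lower, Saa3 and Lrg1, on 14 and 3 and on 17 and 3 reads, beside 5.27% of all genes. The median log2 ratio of that list was -0.57 in OE-BECs and -0.21 in OE-LECs, where 9 of 14 genes were lower and 1 was called, Lrg1 with 10 and 0 reads. Over the 11 genes that reached 20 normalized counts the medians were -0.38 and -0.020. In OE-BECs, 8 of the 13 IRF1-dependent genes with reads were lower and 5 higher, 1 of them called higher (Cxcl10, with 8 and 27 reads), with a median log2 ratio of -0.23. In OE-LECs, 13 of 15 were higher and 2 were called higher, as were 2.77% of all genes, with a median log2 ratio of 0.96. The called genes in OE-LECs were Cxcl10, with 27 control reads against 221, 6.97-fold higher, and Nlrc5, with 40 and 184 reads, 3.92-fold higher. Irf7, the interferon regulatory factor that amplifies type I interferon, had 766 and 5679 reads, 6.32-fold higher, a log2 ratio of 2.66 (interval 2.55 to 2.77). Irf1 in the same cells had a log2 ratio of 0.20. Of the 10 pan-endothelial genes 9 were lower in OE-LECs, with a median log2 ratio of -0.24. Lcn2, which encodes lipocalin 2, was lower in both lines, with log2 ratios of -1.10 and -0.74, as was Cebpd among the 10 genes. Timp1, of the same STAT3 and acute phase list as Lcn2, was higher in both lines. Its level was 7.63 CPM in control and 14.4 in overexpressing BECs, and 31.6 in control and 63.3 in overexpressing LECs.

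**Figure D5:**
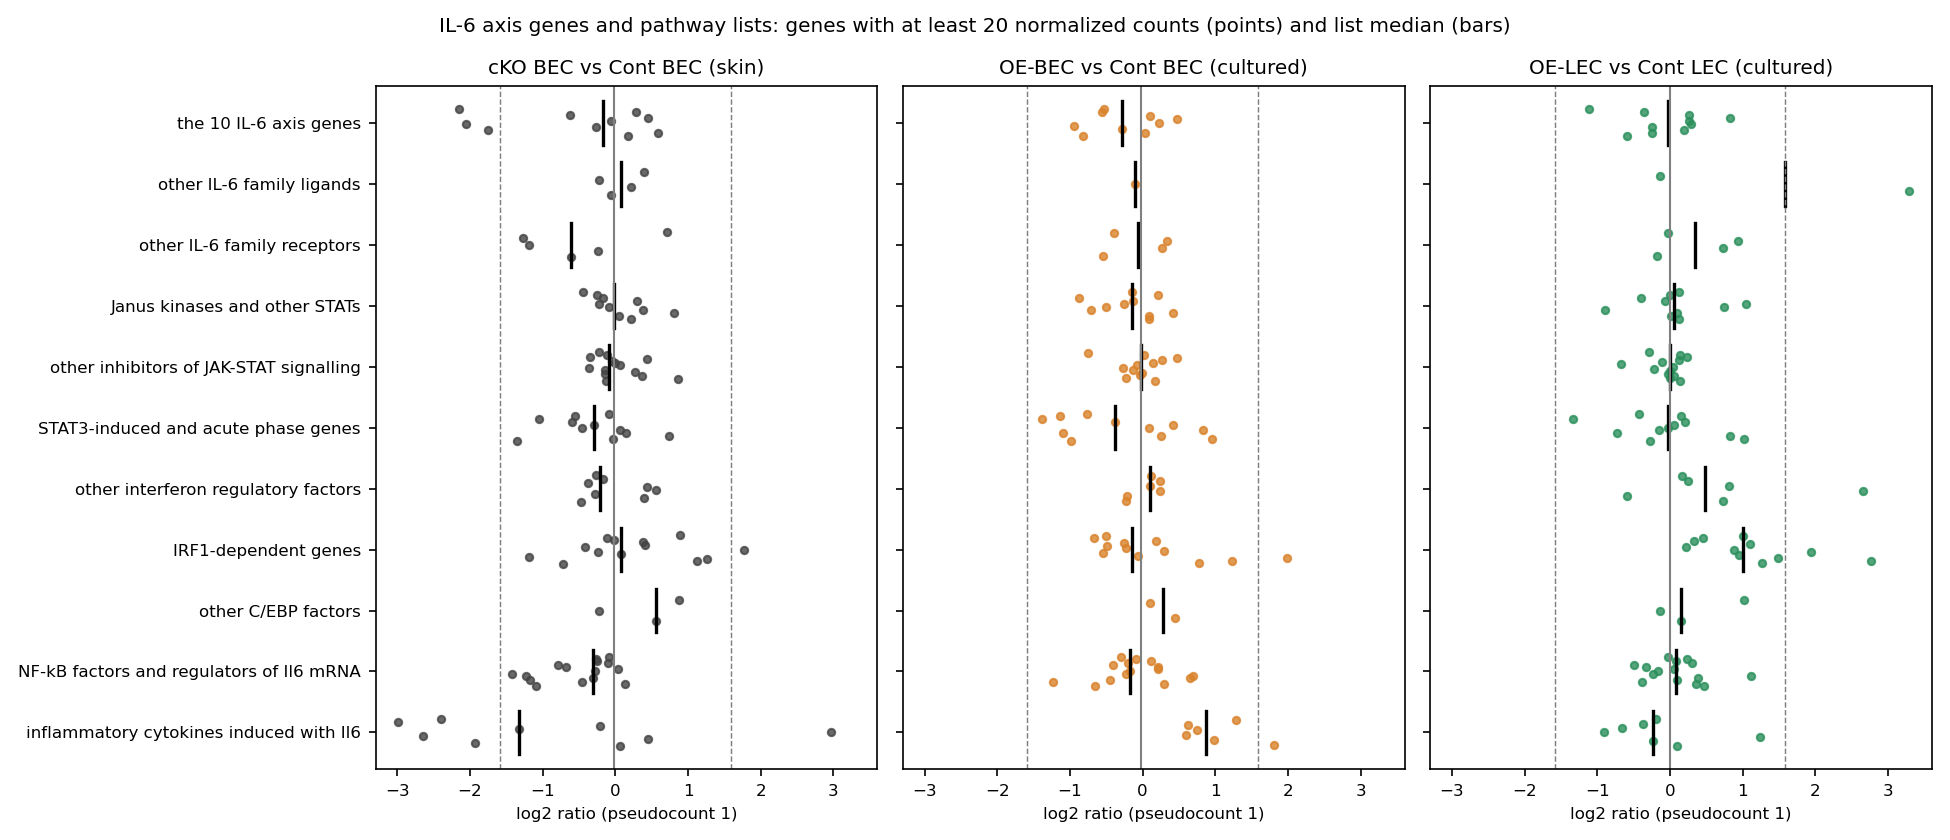
Log2 ratio (x, pseudocount 1) in the 3 comparisons for the 10 genes and for lists of other pathway genes (y), where points are genes that reached 20 normalized counts, black bars list medians, the solid line the median of all genes and dashed lines 3-fold. Cytokines induced with Il6 spread to both sides in skin BECs, where 6 points lie below 0 and 3 above it. Cxcl2 reaches -2.99 on the left, and Il1a, with 2 and 28 reads, lies on the right. IRF1-dependent genes lie to the right in OE-LECs, where their median over these points is 1.01.

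Likeness to a gene was measured as the root mean square difference of the 3 log2 ratios (pseudocount 1), over 3 comparisons and 6 libraries. Of 8681 genes that reached 100 normalized counts in each pair, those nearest to Irf1 were Wdfy1 (difference 0.160), Selp (0.170), Hddc3 (0.208), Asb4 (0.214) and Cdh13 (0.234). Selp, which encodes the adhesion molecule P-selectin, had 130 and 44 reads in the skin libraries. The genes nearest to Socs3 were Ly6c1 (0.325), Foxc1 (0.339), Irf1 (0.347), Bcat1 (0.370) and AI506816 (0.375), so that Irf1 ranked 3. For Il6, with a minimum of 20 normalized counts and 10950 genes, they were Snord49a (0.358), Hoxb3 (0.362), Lincppara (0.406), A530016L24Rik (0.408) and Rps19-ps3 (0.447). Neither Socs3 nor Irf1 was among the 5 genes nearest to Il6. Socs3 and Irf1 were both called lower in skin BECs, and that ratio enters the measure. The rank of Irf1 near Socs3 is therefore no separate evidence that these genes behave alike.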

How the data were processed

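RNA-seq counts of 6 libraries were used, with 1 library per group, grouped by the titles in the labels. Libraries were prepared by the authors with the ScriptSeq v2 kit. Adapters were removed with skewer v0.2.2, and reads were aligned to mm10 with STAR v2.7.9a and assigned to genes with VERSE v0.1.5, and the authors deposited raw read counts of 24421 gene symbols. Of these genes, 4473 had no read.

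Each pair was scaled by the DESeq2 1.42.0 median of ratios (R 4.3.3), and the calling threshold was that of the study's methods. Log2 ratios carry exact (Clopper-Pearson) 95% intervals on the reads of both libraries, CPM exact Poisson intervals. No model or test was fitted. Positions and exon lengths came from GENCODE M21, promoter windows from RefSeq. Python 3.11.15, numpy 2.4.6, scipy 1.17.1 and pandas 2.3.3 were used. The calling step was tested on simulated data with counting noise only and planted changes far beyond the threshold, in genes without low counts. That test does not bear on calls near the threshold, on genes of low count or on spread between libraries. Alternatives were size factors from all 6 libraries, TMM scaling (edgeR 4.0.16), total counts, the pan-endothelial median as the reference, a minimum of 20, at least 2-fold, and pseudocounts of 1 and 0.1.

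The 10 genes and the lists were chosen with earlier results of these data known. Named are all 10 genes, genes of the pathway lists that were called and reached 100 normalized counts, and the 5 genes most like Il6, Socs3 and Irf1. Other genes of the lists are named outside this rule, chosen after their values were seen.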

Additional observations from a re-analysis of the deposited data

Results flagged for a closer look

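The log2 ratio of Irf1 in OE-LECs exceeded that in OE-BECs by 0.48. It stands out because Irf1 was higher than the control in the single OE-LEC library (0.20, interval 0.02 to 0.38) and lower in the single OE-BEC library (-0.28, interval -0.51 to -0.05). The difference was not tested, since each group has 1 library. With the pan-endothelial median as the reference, Irf1 was above 0 in both, at 0.44 and 0.05.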

How the results depend on the processing

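Of 145 recomputed log2 ratios of the 10 genes, 124 stayed within the counting interval, 21 moved beyond it and 0 called values changed sign. All 21 that moved came from the pan-endothelial median as the reference. Among genes not called, that reference turned the sign of Il6st, Stat3 and Socs1 in skin BECs and of Irf1 in OE-BECs. Size factors from all libraries, TMM and total counts shifted log2 ratios by at most 0.06. The pan-endothelial median as the reference raised all ratios, by 0.70 in skin BECs, 0.33 in cultured BECs and 0.24 in cultured LECs. Under it the genes called lower in the library labelled cKO went from 3 to 0, and the median log2 ratio of the 10 genes became 0.53 in skin BECs, -0.078 in OE-BECs and 0.22 in OE-LECs. A fold of at least 2 gave 1 gene called lower in OE-LECs, Il6. The other 49 recomputed counts and medians held. No library could be left out, with 1 per group. No paired analysis was possible because no group has a second library. Depth limits Lif, Socs1 and Il6, whose cultured levels rest on 1 to 114 reads.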
